A study of Mus musculus with 22 samples.

Results

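The regions described here are the footprints of hnRNP A1 that lay in 3' untranslated regions (3' UTRs) of mouse spinal cord transcripts. A footprint is a genomic interval left after immunoprecipitation of crosslinked RNA, sequencing and subtraction of background. A footprint was a member when its midpoint fell in the exon part after the stop codon of a protein-coding transcript of GENCODE release M21 (GRCm38) and in no annotated coding sequence (CDS). In all, 6168 of 136207 footprints of 10 mice were members, and 135636 of the latter lay on chromosomes 1 to 19, X and Y, where they could be assigned. Members made up 4.55% of these, against 77240 footprints in CDS and 31293 in introns.

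CLIPseq of hnRNP A1 was done on spinal cords of wild-type female C57BL/6 mice, 3 naïve and 7 with experimental autoimmune encephalomyelitis (EAE), an immune-mediated model of multiple sclerosis. EAE was induced with a myelin oligodendrocyte glycoprotein peptide in complete Freund's adjuvant and with pertussis toxin, at 12 weeks of age by the protocol label and 8 weeks by the design text, and cords were taken 15 days after clinical onset. Mild EAE (n = 3; mice 3, 4 and 7) stood for clinical scores of 1 to 1.5 and severe EAE (n = 4; mice 1, 2, 5 and 6) for scores of 2.5 to 3. Each mouse was 1 library, naïve mice carried no score, and whole cord was used, so that every cell type of the tissue and any infiltrating cell contributed RNA. The lists were of very unequal length: naïve mice held 17119 to 17494 footprints and mild EAE mice 9751 to 24433, whereas severe EAE mice 1, 2 and 6 held 2670, 209 and 673 and severe EAE mouse 5 held 31870. Values without single severe EAE mice are given where they move a result. The intervals carried no strand, score or read count, so the depth behind a footprint is unknown.

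The 3' UTR is the part of a messenger RNA (mRNA) behind the stop codon, where RNA-binding proteins and microRNAs act on the stability, translation and transport of the message, and its end is set by cleavage and polyadenylation. In neurons and glia many 3' UTRs are long, and transport of mRNAs into axons, dendrites and myelinating processes depends on them. hnRNP A1 is an abundant, mainly nuclear RNA-binding protein that shuttles to the cytoplasm, is best known as a splicing regulator, and binds RNA with a UAG core through its RNA recognition motifs.

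Windows of 30 nt from the 3' UTR regions that the results turn on are printed here from the GRCm38 reference in RefSeq, 5' to 3' on the strand of the gene, with the first UAG of the stretch covered by the most mice in capitals (TAG in DNA letters). The first 6 are from regions met in naïve and EAE cords alike, and Gap43 is shown because its shared stretch of 64 nt, covered in 8 mice, held no UAG.
Pea15a, chr1:172197857-172197886, minus strand: actgagcctgagcTAGggacgcaggcagag
Scd2, chr19:44305232-44305261, plus strand: tgaaagctttgggTAGggtaggagagctga
Gap43, chr16:42248947-42248976, minus strand: cccttctcagctccactctgaagtttcctc
Elavl3, chr9:22017550-22017579, minus strand: gatacacaacacaTAGatacagaaacattt
Capns1, chr7:30187252-30187281, minus strand: ggtcaccccacccTAGcacacccaatccac
Wasf3, chr5:146472984-146473013, plus strand: agtggatggataaTAGgttgatgggtggat
The next 3 are from regions met in EAE cords and in no naïve cord, of which Atp1b2 and Ptms held no UAG in the stretch shared by 5 mice, and the last is from a region met in all 3 naïve cords and in no EAE cord.
Atp1b2, chr11:69600153-69600182, minus strand: cctttctgcatgccagcctgaaagcgtcag
Ptms, chr6:124914017-124914046, minus strand: cagcctctcatttccatctctccagacact
Ywhag, chr5:135909089-135909118, minus strand: agtcatgtgagggTAGaactgaagagggag
Slc41a1, chr1:131847933-131847962, plus strand: tcgcccctaactctgcagtgactgccaacc

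How much of the hnRNP A1 footprint lay in 3' UTRs, and whether this differed with disease, was compared first. Members were present in every mouse. The naïve mice 1, 2 and 3 held 464, 884 and 738 members, which was 2.72%, 5.09% and 4.24% of their footprints on chromosomes. Mild EAE mice 3, 4 and 7 held 390, 287 and 1061 members, or 2.70%, 2.95% and 4.36%. Severe EAE mice 1, 2, 5 and 6 held 223, 25, 2025 and 71 members, or 8.40%, 12.3%, 6.37% and 10.6%. All 4 severe EAE mice lay above all naïve and all mild EAE mice in the share of 3' UTR footprints, while naïve and mild EAE mice overlapped. This was not particular to 3' UTRs. The share of footprints in 5' UTRs separated in the same way, at 2.20% to 3.43% in severe EAE, 1.31% to 1.96% in naïve and 1.70% to 1.97% in mild EAE mice.

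The mean share was 9.40% ± 2.56 (SD, n = 4) in severe EAE, 4.02% ± 1.2 (SD, n = 3) in naïve and 3.34% ± 0.895 (SD, n = 3) in mild EAE. The difference of severe EAE from naïve was 5.38 percentage points and that from mild EAE 6.06 points (two-sided exact permutation p = 0.0571 for each, adjusted p = 0.114 over 4 comparisons; the smallest p of 4 mice against 3 is 0.0286). Neither passed the threshold of 0.05, nor did all EAE against naïve (2.78 points, exact permutation p = 0.267) or mild EAE against naïve (-0.681 points, exact permutation p = 0.6, smallest possible 0.1). By covered nucleotides in place of footprints, severe EAE mice held 8.36% to 13.4% in 3' UTRs, naïve mice at most 5.71% and mild EAE mice at most 5.87%, and severe against mild EAE then gave an exact permutation p of 0.0286 (adjusted p = 0.114). The share ran against list length within severe EAE, from 12.3% in the list of 209 footprints to 6.37% in that of 31870, and the part of list length in the difference was not tested. With only the severe EAE mice that held over 1000 footprints, mice 1 and 5, the difference was 3.37 points from naïve and 4.05 points from mild EAE (exact permutation p = 0.1 for each, the smallest that 2 mice against 3 allow), and both mice still lay above all naïve and mild EAE mice. The intron share of the same lists was 32.5% ± 6.39 in naïve and 18.6% ± 5.22 in EAE (exact permutation p = 0.0167, adjusted p = 0.0667). This did not pass the threshold after adjustment. In severe EAE alone the intron share was 20.5% ± 4.71 (exact permutation p = 0.0857 against naïve). Mild EAE, which had the lowest mean 3' UTR share, lay 4.55 points below severe EAE in introns (exact permutation p = 0.314). The part of introns in the 3' UTR difference was not tested.

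**Figure D1:**
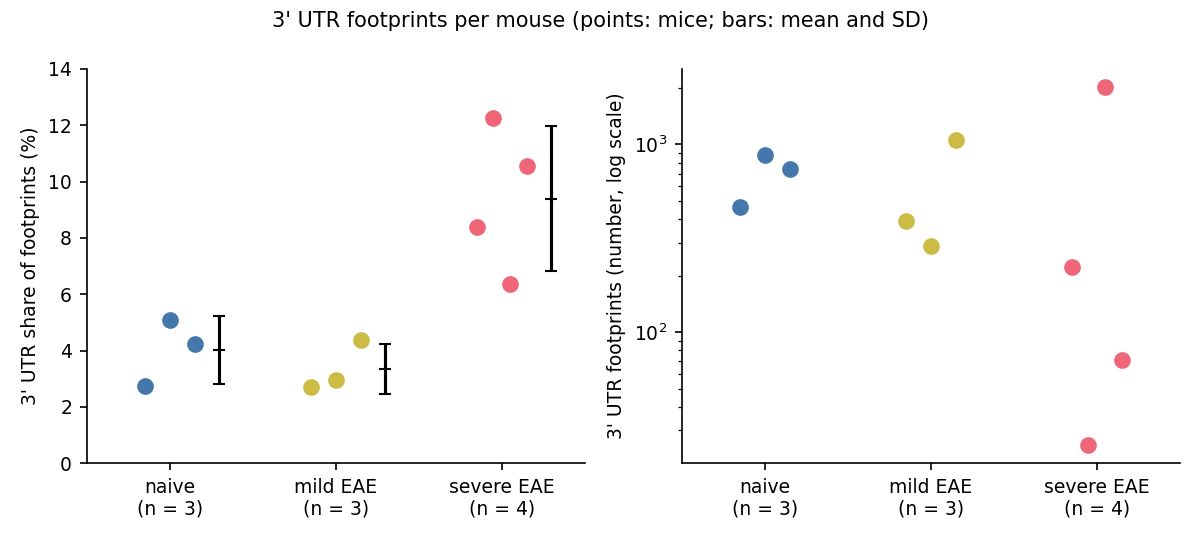
Share (left, percent of footprints) and number (right, log scale) of 3' UTR footprints per mouse, with points for mice and bars for the mean and SD of a group. The severe EAE mice sit between 6.37% and 12.3%, above the 2.70% to 5.09% of the other mice, while their numbers run from 25 to 2025.

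The number of members did not separate the groups. EAE mice held 583 ± 723 members (SD, n = 7) and naïve mice 695 ± 213 (SD, n = 3), a difference of -112 footprints (exact permutation p = 0.858). Single mice moved this difference between -17.9, in the absence of naïve mouse 2, and -353, in the absence of severe EAE mouse 5 (exact permutation p = 0.190). The median length of a member was 144, 128 and 148 nt in naïve mice, 145, 142 and 150 nt in mild EAE and 146, 135, 150 and 139 nt in severe EAE, so the groups overlapped (difference of EAE from naïve 3.86 nt, exact permutation p = 0.483). Members ranged from 7 to 929 nt. In every mouse their median was above that of CDS footprints, 79.5 to 93.5 nt, and close to that of intron footprints, 125 to 148 nt.

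Per annotated sequence, 3' UTRs were footprinted less than CDS and more than introns. The annotation held 32.2 Mb of 3' UTR outside CDS, 36.5 Mb of CDS and 1093 Mb of intron. Members per Mb of 3' UTR ran from 0.777 in severe EAE mouse 2 to 62.9 in severe EAE mouse 5, and the density in CDS was between 1.98 times (severe EAE mouse 2) and 24.1 times (mild EAE mouse 3) that in 3' UTRs. All 10 mice lay on the same side (mean log2 ratio of 3' UTR to CDS -3.08 ± 1.13, SD, n = 10; exact sign-flip permutation p = 0.00195, the smallest possible). Against introns the mean log2 ratio was 3.05 ± 0.936, above 0 in 10 of 10 mice (exact sign-flip permutation p = 0.00195). Exons make up most spliced RNA of the tissue, and the matched inputs, which would give that background, were not analysed here.

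Where in the 3' UTR the footprints lay was asked next, with each annotated 3' UTR cut into 5 parts of equal length from the stop codon to the transcript end. Members gathered toward the stop codon and were sparse at the transcript end. Part 1, next to the stop codon, held 29.7% ± 4.70 of a mouse's members (SD, n = 10; 20% to 36.7%) and lay above an equal share of 20% in 9 mice, with severe EAE mouse 2, which held 25 members, at 20% (exact sign-flip permutation p = 0.00391, adjusted p = 0.00977 over 5 parts). Part 5, at the transcript end, held 11.7% ± 2.21 (7.95% to 14.9%), below 20% in 10 of 10 mice (mean difference -8.33 points, exact sign-flip permutation p = 0.00195, adjusted p = 0.00977). A midpoint cannot lie close to the transcript end unless its footprint runs past it, and the equal share of 20% makes no allowance for this. Parts 2, 3 and 4 held 20.9% ± 1.85, 19% ± 1.94 and 18.8% ± 4.14, and none of them passed the exact permutation test (adjusted p = 0.188, 0.188 and 0.361). EAE and naïve mice did not differ in any part beyond their spread, with exact permutation p between 0.117 (part 5, a difference of -2.41 points) and 0.992 (part 2).

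**Figure D2:**
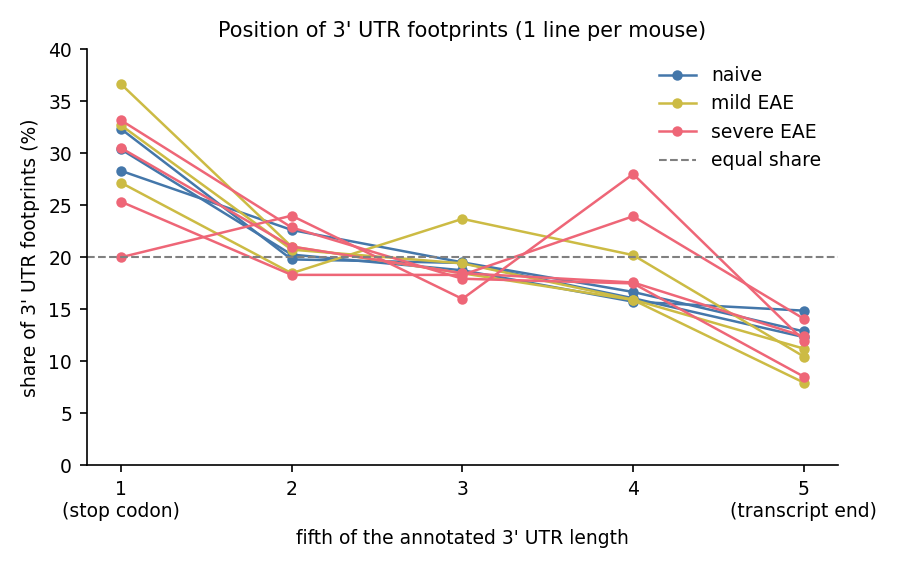
Share of each mouse's 3' UTR footprints (percent, vertical) in each of 5 equal parts of the annotated 3' UTR from stop codon to transcript end (horizontal), 1 line per mouse, with an equal share of 20% as the broken line. Lines start at 20% to 36.7% and end at 7.95% to 14.9% in all groups.

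In nucleotides, the median member lay 373 to 843 nt behind the stop codon and 888 to 1208 nt before the transcript end. The 200 nt next to the stop codon held 22.7% ± 6.48 of members although 200 nt were 15.3% ± 2.15 of the length of the 3' UTRs concerned (mean difference 7.41 points, exact sign-flip permutation p = 0.00391). The last 200 nt held 8.85% ± 2.11, 6.45 points under their share of the length (p = 0.00195 by the same exact permutation test). Most members, 78.5% to 93.0% by mouse, lay wholly in 3' UTR outside CDS, and 7.04% to 19.5% ran over a boundary into CDS. At most 1.29% of a mouse's members ran out of all annotated genes. Members that ran past the chosen transcript but stayed in an annotated gene were not counted in this. With median lengths of 128 to 150 nt, midpoints could hardly come near the transcript end unless members ran past it, whereas members could run over the stop codon. To that extent the low share at the transcript end was fixed by this use of midpoints, and how large that part is was not tested. The annotated end is the farthest end of the chosen transcript, and ends used in these cords were not measured.

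Members were spread thinly over many genes with long 3' UTRs. They touched 2651 of 21037 genes with an annotated 3' UTR (12.6%), of which 1602 were touched in a single mouse and 184 in 5 or more. The median annotated 3' UTR was 2173 nt in the touched genes and 1015 nt in all genes, and a longer 3' UTR offers more positions for a midpoint. Of the members, 6098 fell in 1 gene, 60 in 2 genes and 10 in more, and 573 (9.29%) lay where genes of both strands were annotated, which intervals without strand cannot tell apart. In the naïve and mild EAE mice and in severe EAE mouse 5, 41.2% to 70.2% of the genes with a member also held a CDS footprint in the same mouse. In severe EAE mice 1, 2 and 6 this share was 29.5%, 0% and 6.82%. A member lying in several annotated genes counted for each of them, and the 71 members of severe EAE mouse 6 gave 88 genes.

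Whether 3' UTR footprints held the UAG core of hnRNP A1 was tested against flanks, that is equally long stretches of 3' UTR upstream and downstream at a distance of 200 nt that the mouse had not footprinted. UAG was not found denser in 3' UTR footprints than beside them. Naïve mice held 11.2, 9.87 and 12.9 UAG per 1000 nt of members, mild EAE mice 11.8, 12.3 and 12.8, and severe EAE mice 9.87, 12.9, 12.2 and 13.8, and flanks held 11.6 to 16 UAG per 1000 nt. The groups overlapped. UAG was present in 67.9% to 92.0% of a mouse's members and in 77.7% to 91.7% of the flanking windows. The log2 ratio of members to flanks was -0.103 ± 0.142 (SD, n = 10), between -0.320 and 0.0543, and above 0 in 3 of 10 mice (exact sign-flip permutation p = 0.0664, adjusted p = 0.103 over 10 motifs). Without naïve mouse 3 or without severe EAE mouse 6 the unadjusted p was 0.0469 or 0.0391, with the ratio then at -0.117 or -0.120. With flanks at a distance of 50 nt the ratio was -0.0455 (exact sign-flip permutation p = 0.398). EAE and naïve mice did not differ beyond their spread (0.0831, exact permutation p = 0.425), and single mice moved this difference between 0.0038, in the absence of naïve mouse 2, and 0.175, in the absence of naïve mouse 3.

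Introns of the same mice gave another picture. The log2 ratio of UAG in intron footprints to their flanks was 0.685 ± 0.368 (SD, n = 10) and above 0 in all mice but naïve mouse 2 (-0.0780). The ratio in 3' UTRs was lower than in introns in 10 of 10 mice, by a mean of -0.788 ± 0.274 (exact sign-flip permutation p = 0.00195, adjusted p = 0.00977 over 10 motifs). AGGU, the other motif whose difference from introns passed the test, was lower in 3' UTRs by a mean of -0.559 ± 0.279 in 10 of 10 mice (adjusted p = 0.00977 from the exact permutation test). Against CDS footprints the 3' UTR ratio of UAG was higher in 9 of 10 mice, yet the mean difference was 0.0551 ± 0.477 (exact permutation p = 0.852), as severe EAE mouse 2, with 18 UAG in its CDS footprints, lay at 0.973 in CDS. In the other 9 mice the difference was 0.202, above 0 in all of them (exact sign-flip permutation p = 0.00391). The 4-base form UAGG stood at 0.225 ± 0.422 in 3' UTRs (8 of 10 mice above 0, exact permutation p = 0.0723, adjusted p = 0.103) and at 0.746 ± 0.428 in introns. The 3' UTR mean was 0.104 without severe EAE mouse 2 (exact permutation p = 0.145) and 0.270 without naïve mouse 2 (exact permutation p = 0.0195).

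**Figure D3:**
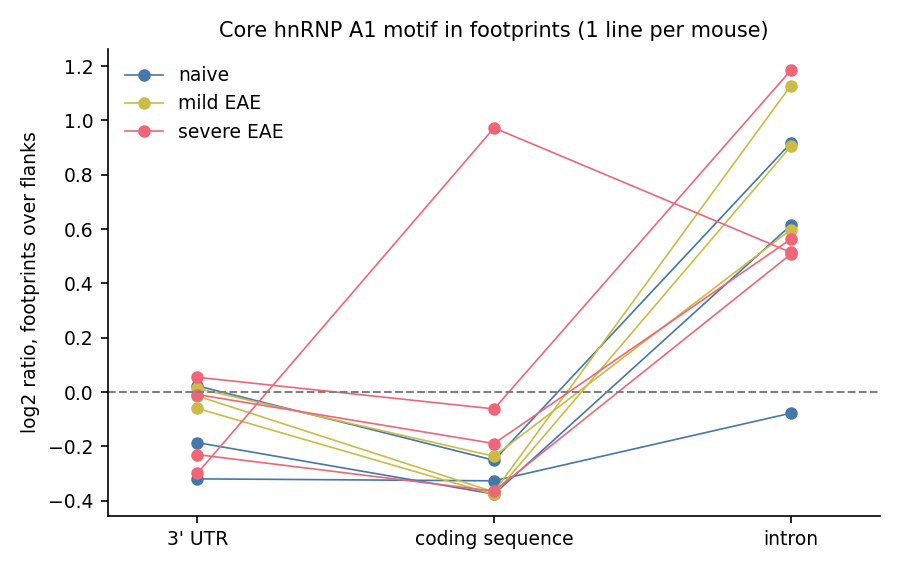
Log2 ratio of the density of the core hnRNP A1 motif in footprints to that in flanks (vertical) for 3' UTR, coding and intron footprints (horizontal), 1 line per mouse. Ratios in 3' UTRs lie between -0.320 and 0.0543 and each mouse's intron value lies above its 3' UTR value.

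U-rich elements known from 3' UTRs were sparser in members than beside them. UUUUU, the run bound by ELAV proteins and other U-binding factors, stood at a log2 ratio of -1.40 ± 0.537 (SD, n = 10), below 0 in 10 of 10 mice (exact sign-flip permutation p = 0.00195, adjusted p = 0.00651 over 10 motifs). It occurred in 8.45% to 28.0% of a mouse's members and in 16.8% to 32% of the flanking windows. AUUUA, the core of AU-rich decay elements, stood at -1.07 ± 0.365 and below 0 in 10 of 10 mice, with the same p and adjusted p. It occurred in 5.46% to 16% of members and 14.1% to 27.8% of windows. AAUAAA, the polyadenylation signal, stood at -0.818 ± 0.657 (9 of 10 mice below 0, adjusted p = 0.00977, exact permutation test). It occurred in 0% to 6.68% of a mouse's members and in 2.13% to 9.78% of windows. ACUAA, the core recognised by quaking, stood at -0.412 ± 0.508 (10 of 10 mice below 0, adjusted p = 0.00651) and UGUANAUA, the Pumilio element with N for any base, at -0.889 ± 0.866 (9 of 10, adjusted p = 0.0273, both by the exact permutation test). Without severe EAE mouse 2 the mean for ACUAA was -0.261, below 0 in all 9 mice (exact permutation p = 0.00391). The remaining motifs, with means of -0.0235 for AGGU, 0.0574 for the RBFOX motif UGCAUG and 0.215 for runs of GGGG, did not pass the exact permutation test (adjusted p = 0.801, 0.742 and 0.408). Motifs were read on the gene strand only and overlapping matches were counted, so that UAGG is contained in the count of UAG.

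Members also differed from their flanks in base composition, whose part in the motif ratios was not tested. Members held 25.8% U against 28.5% in flanks and 23.9% A against 26.0%, lower in 10 of 10 mice for each (exact sign-flip permutation p = 0.00195, adjusted p = 0.00391 over 4 bases). C stood at 25.1% against 22.6% and G at 25.2% against 22.9%, each higher in 8 of 10 mice (adjusted p = 0.0215 and 0.0104 from the exact permutation test). In introns UUUUU stood at -1.58 ± 0.390 and AUUUA at -0.991 ± 0.539, and the difference from 3' UTRs did not pass the exact permutation test (0.186 ± 0.629, adjusted p = 0.483, and -0.0755 ± 0.496, adjusted p = 0.699). Against CDS footprints, the 3' UTR ratio was lower for UUUUU by a mean of -1.20 ± 0.840 and for AAUAAA by -0.996 ± 0.375, each in 10 of 10 mice, and higher for GGGG by 0.529 ± 0.847 in 9 of 10 mice (exact sign-flip permutation test, adjusted p = 0.00977, 0.00977 and 0.0130). Without severe EAE mouse 2 the difference for GGGG was 0.278 (exact permutation p = 0.00781). None of the 10 motifs was found to differ between EAE and naïve members (adjusted p = 0.992 for each, exact permutation test).

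How often a 3' UTR footprint was met again in another mouse was compared with the other classes. A member overlapped a footprint of at least 1 other mouse by more than 1 nt in 62.3%, 28.6% and 52.0% of cases in naïve mice 1, 2 and 3. In mild EAE mice 3, 4 and 7 this share was 65.4%, 71.8% and 53.8%, and in severe EAE mice 1, 2, 5 and 6 it was 70.4%, 88.0%, 40.2% and 70.4%. Naïve mouse 2 was lowest, and it was also the lowest of the 10 in CDS and introns. The mean was 60.3% ± 17.2 in 3' UTRs, 44.3% ± 13.3 in introns and 72.2% ± 8.74 in CDS (SD, n = 10). Members were met more often than intron footprints in 9 of 10 mice (16 points, exact sign-flip permutation p = 0.00391, adjusted p = 0.00781 over 2 comparisons) and less often than CDS footprints in 9 of 10 (-11.9 points, p = 0.0273 by the same exact test, adjusted p = 0.0273). Without severe EAE mouse 5, which has the longest list, the difference from introns was 9.51 points (exact permutation p = 0.0469). An overlap is counted in both of its mice, so the mice are not fully independent in these 2 tests.

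Members joined where they overlapped across mice gave 4307 merged 3' UTR regions. Of these, 3272 came from 1 mouse, 613 from 2, 233 from 3, 108 from 4, 43 from 5, 27 from 6, 8 from 7 and 3 from 8, and none from 9 or 10. In 5 or more mice lay 1.88% of 3' UTR regions, 5.79% of CDS regions and 1.88% of intron regions. The 3 regions of 8 mice were in Pea15a, Scd2 and Gap43. Overlaps were chained, so the mice of a region need not share a base. The stretch covered by the most mice was 64 nt in 6 mice in Pea15a and 89 nt in 6 mice in Scd2. In Gap43 it was 64 nt in 8 mice. Only 13 of 6151 distinct members had the same start and end in more than 1 mouse.

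Values in nt here are summed lengths of the footprints assigned by their midpoints, so a sum can exceed the annotated length. Pea15a encodes a small phosphoprotein rich in astrocytes, and its region (chr1:172197492-172198690, minus strand, 3' UTR exon) held 720, 217 and 182 footprinted nt in naïve mice 1, 2 and 3. Mild EAE mice 3, 4 and 7 held 426, 307 and 577 nt and severe EAE mice 1 and 5 held 395 and 1023 nt, while severe EAE mice 2 and 6 held none. Naïve and EAE mice overlapped. The region in Scd2 (chr19:44304345-44305415, plus strand), a stearoyl-CoA desaturase of lipid synthesis in brain, held 299, 150 and 109 nt in naïve mice, 380, 276 and 659 nt in mild EAE and 219 and 929 nt in severe EAE mice 1 and 5. Severe EAE mice 2 and 6 held none, and the groups overlapped here too.

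Gap43 encodes a growth cone protein whose mRNA is a textbook case of axonal transport. Its region (chr16:42248878-42249114, minus strand) lay next to the stop codon, with footprint midpoints 5 to 92 nt behind it, and held 215, 111 and 150 nt in naïve mice. It held 229 and 212 nt in mild EAE mice 3 and 7 and 164, 184 and 117 nt in severe EAE mice 1, 5 and 6. Mild EAE mouse 4 and severe EAE mouse 2 held none, and the other values of the groups overlapped.

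Other regions were each met in 7 mice. They lay in Vamp1 and Cplx1, of synaptic vesicle release, in Pcp4l1, in Elavl3, a neuronal ELAV protein that itself binds U-rich 3' UTRs, in Capns1, the small calpain subunit, and in Wasf3, an actin regulator. No stretch was covered in more than 4 mice in Vamp1 or in more than 6 in Pcp4l1 and Cplx1. In Elavl3, Capns1 and Wasf3 a stretch was common to all 7. The Elavl3 region (chr9:22017429-22017755) held 295, 205 and 226 nt in naïve mice and 156, 273, 180 and 186 nt in mild EAE mice 4 and 7 and severe EAE mice 1 and 5. The Capns1 region (chr7:30187128-30187364) was met in naïve mouse 3 alone of the naïve mice, at 164 nt, and in 6 of 7 EAE mice at 143 to 176 nt. The Wasf3 region (chr5:146472954-146473133) held 7 UAG in the 105 nt common to its 7 mice, whereas the shared stretches of the other regions named above held 0 to 2.

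**Figure D4:**
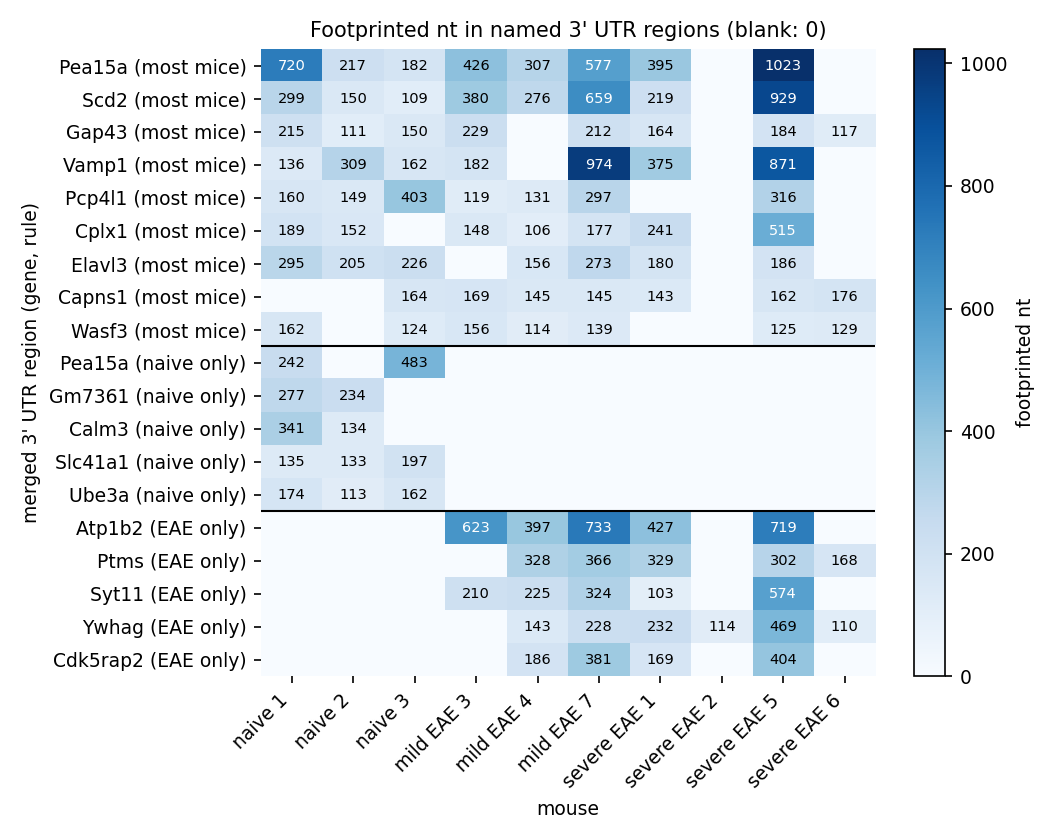
Footprinted nt in each named merged 3' UTR region (rows, with gene and rule) in each mouse (columns), darker for more nt and blank for 0. The top 9 rows are filled in naïve and EAE mice alike, the middle 5 in naïve mice and the last 5 in EAE mice, as their rules require.

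Regions of 1 condition were counted next. In at least 2 naïve mice and no EAE mouse lay 67 of 4307 3' UTR regions (1.56%), against 2.21% of the 82517 regions of all classes, and 62 of the 67 were in 2 mice and 5 in 3. In at least 4 EAE mice and no naïve mouse lay 26 (0.604%), against 0.767% of all regions, with 17 in 4 mice, 8 in 5 and 1 in 6. Both shares were near the background of all classes. Without severe EAE mouse 5 the counts were 84 of 3058 and 10 of 3058, and without severe EAE mice 1, 2 and 6 they were 70 of 4210 and 11 of 4210, so the count of EAE regions rests on these lists.

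The EAE region with the most footprinted nt was in Atp1b2, the beta-2 subunit of the sodium pump and an adhesion molecule of glia (chr11:69600029-69600893, minus strand). It held 623, 397 and 733 nt in mild EAE mice 3, 4 and 7, 427 and 719 nt in severe EAE mice 1 and 5, and 0 nt in the other 5 mice, naïve mice 1, 2 and 3 included. In the CDS of Atp1b2 the naïve mice held 357, 166 and 351 nt, within the EAE range of 0 to 467 nt. Over the whole 3' UTR, EAE mice held 533 ± 459 nt and naïve mice 0 (exact permutation p = 0.125, adjusted p = 0.731 over all gene features), since severe EAE mice 2 and 6 held none. Atp1b2 was named by a rule on these same values and entered the test through EAE mice alone, which fixed the direction. The test is therefore no separate evidence.

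Ptms, which encodes the acidic nuclear protein parathymosin, held 328 and 366 nt in mild EAE mice 4 and 7 and 329, 302 and 168 nt in severe EAE mice 1, 5 and 6 (chr6:124913750-124914121). Its CDS held no footprint in any mouse. Syt11, a synaptotagmin, held 210, 225 and 324 nt in mild EAE and 103 and 574 nt in severe EAE mice 1 and 5 (chr3:88746812-88747409), and its 5 mice had only 1 nt in common. Naïve mouse 3 held 454 nt elsewhere in the 3' UTR of Syt11.

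Ywhag, a 14-3-3 protein, had the one region of this kind in 6 mice (chr5:135908958-135909432). It held 143 and 228 nt in mild EAE mice 4 and 7 and 232, 114, 469 and 110 nt in severe EAE mice 1, 2, 5 and 6, so that it was present in all 4 severe EAE mice. No stretch of this region was covered in more than 4 of its 6 mice. Naïve mouse 3 held 147 nt elsewhere in this 3' UTR (all mice, exact permutation p = 0.108, adjusted p = 0.731). Ywhag was named by its EAE region, so this test too is no separate evidence. The fifth region, assigned to Cdk5rap2 (chr4:70249022-70249443), overlaps the annotated pseudogene Ywhaq-ps3, and its reads may belong to a related copy, so it is uncertain.

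The naïve regions with the most nt were a second region of Pea15a, which overlaps Dcaf8 (242 and 483 nt in naïve mice 1 and 3), the predicted gene Gm7361 (277 and 234 nt in mice 1 and 2), Calm3, a calmodulin gene (341 and 134 nt in mice 1 and 2), Slc41a1, a magnesium transporter, and Ube3a, a ubiquitin ligase. Slc41a1 held 135, 133 and 197 nt in naïve mice 1, 2 and 3 (chr1:131847846-131848042), while mild EAE mouse 3 held 160 nt elsewhere in its 3' UTR. Ube3a held 174, 113 and 162 nt (chr7:59310521-59310787), at a place where the noncoding gene Snhg14 is annotated as well.

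Genes were then tested by their footprinted nt in 3' UTR, CDS and introns together, in EAE against naïve mice. Of 2651 genes with a member, 551 were footprinted in their 3' UTR in at least 3 mice and entered the test, and a feature that passed this filter through 1 condition had to differ in presence. After adjustment over all 6076 features none passed (smallest adjusted p = 0.344 by the exact permutation test with Benjamini-Hochberg adjustment). At an unadjusted p under 0.05, 0 of the 551 3' UTR features were higher in EAE, against 0% of all features, and 13 were lower (2.36%), against 7.08% of all features. A feature absent from naïve mice, and missing as well from the short lists of severe EAE mice 2 and 6, could not reach a p under 0.05, so few higher features were possible. Of the CDS features 2.42% and of the intron features 18.9% were lower. When single mice were dropped, the number of lower 3' UTR features ran from 5, in the absence of naïve mouse 3, to 20, in the absence of severe EAE mouse 5, and Tagln3 was higher in EAE in the absence of severe EAE mouse 2 or 6.

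The 13 genes, named here with their values known, were Zbtb20, Abhd2, Gm21680, Slc41a1, Dnmt3a, Smarcc2, Ypel4, Rap1gap, Chpt1, Hoxc6, Gm10471, Dcaf7 and Dpy19l4. Dnmt3a, a DNA methyltransferase, held 113, 273 and 158 nt in naïve mice and 0 nt in all 7 EAE mice. Ypel4 held 137, 113 and 150 nt and Rap1gap, which switches off the small GTPase Rap1, held 45, 126 and 218 nt, with no EAE mouse footprinted for either. Abhd2, a serine hydrolase, held 271, 469 and 302 nt in naïve mice and 124 nt in severe EAE mouse 5 alone of the EAE mice. Dnmt3a, Ypel4 and Rap1gap entered the test through the naïve mice alone, so that their difference was fixed by the filter. Abhd2 had an unadjusted exact permutation p of 0.00833, the smallest possible, and an adjusted p of 0.344. The transcription factor gene Zbtb20 held 278, 617 and 417 nt in naïve mice and 573 nt in severe EAE mouse 5 (exact permutation p = 0.025, adjusted p = 0.459).

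The genes with the most footprinted 3' UTR nt over all mice included genes of glia, lipid synthesis and synapses beside others, in an order that is not corrected for 3' UTR length or for the length of each mouse's list. Slc1a2, the main glutamate transporter of astrocytes, led with 13049 nt over an annotated 3' UTR of 9769 nt. It held 1060, 339 and 1524 nt in naïve mice, 1097, 1258 and 2660 nt in mild EAE and 573, 0, 4538 and 0 nt in severe EAE mice 1, 2, 5 and 6. The groups overlapped (exact permutation p = 0.708, adjusted p = 1). Kcnj10, the potassium channel of astrocytes, held 756, 124 and 0 nt in naïve mice and 107 to 2477 nt in 6 of 7 EAE mice. Aqp4, the water channel of astrocyte endfeet, held 222, 0 and 305 nt in naïve mice and 154 to 2168 nt in 5 EAE mice.

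Further genes at the top of this order were Ube3a (8893 nt), in part of which Snhg14 is annotated as well, Scd2 (6032 nt) and Snhg11 (5784 nt). Below these came Qk (5330 nt), which encodes the quaking protein of oligodendrocytes and astrocytes, Vamp1 (5031 nt) and Pea15a (4572 nt). Severe EAE mouse 5 held 22.4% (Pea15a) to 44.6% (Kcnj10) of the nt of these genes. Without it Slc1a2, Ube3a and Scd2 still led, with 8511, 6544 and 4009 nt, while Vamp1 (3698 nt) came before Snhg11 (3587 nt) and Kcnj10 fell from place 5 to 8. None of these genes passed the exact permutation test of EAE against naïve mice (adjusted p = 1 for each).

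Gene lists were described by how many genes held a member, beside the 12.6% of all genes with a 3' UTR. Of the 10624 genes footprinted in 3' UTR, CDS or introns in any mouse, 2651 held a member. Of 30 myelin and oligodendrocyte genes 24 held one and 28 any footprint of these 3 classes. For 20 astrocyte markers these counts were 15 and 20, for 25 neuron markers 18 and 24 and for 43 synapse and axon genes 26 and 42. For 40 cytoskeleton genes they were 29 and 40, and for 21 membrane transport and pump genes 15 and 19. Among the genes with a member were Nfasc, of the node of Ranvier (3822 nt over 8 mice), Map1b and Mapt, which bind microtubules (3519 and 2848 nt), Kif5a and Kif1b, kinesin motors (3010 and 2802 nt), and Mbp, myelin basic protein (2695 nt over 4 mice). Further genes of these lists were Gpm6b (2192 nt) in myelin, Eno2 (2144 nt) and Nefl (1448 nt) in neurons, Glul (1539 nt) in astrocytes and Slc24a2 (2031 nt) among transporters. In these 6 lists 15, 9, 11, 13, 18 and 7 3' UTR features entered the exact permutation test and 0 had an unadjusted p under 0.05, and their median differences of EAE from naïve ran from -40.8 nt (neuron markers) to 23.7 nt (astrocyte markers), beside -2.48 nt over all tested 3' UTR features.

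Genes of RNA processing came next. Of 43 hnRNP and splicing regulator genes 19 held a member, although 42 were footprinted in their 3' UTR, CDS or introns. Hnrnpa1 itself held 111 nt in naïve mouse 3, 148 nt in mild EAE mouse 3 and 169 nt in severe EAE mouse 5, and none in the other mice. Beside Qk, the leading genes were Srsf1 (769 nt), Hnrnpa3 (684 nt) and Celf4 (541 nt), each in 3 or 4 mice. Of 44 genes of 3' UTR binding and RNA decay 13 held a member and 41 any footprint, led by Elavl3 (1521 nt), Ago3 (734 nt), Ddx6 (427 nt) and Zfp36l2 (312 nt). Of 19 cleavage and polyadenylation genes 3 held one, Cpsf6, Cstf2 and Cpsf7, with 202, 133 and 125 nt.

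All 45 genes of cytosolic ribosomal proteins were footprinted somewhere, yet 4 held a 3' UTR footprint, Rps24, Rpl22, Rps19 and Rpl9. Rps24 held 20, 28 and 81 nt in naïve mice and 18 to 83 nt in 4 EAE mice, over 8 footprints. Messages of ribosomal proteins are known for short 3' UTRs, whose part in this count was not tested. The annotated 3' UTRs of Rps24, Rpl22, Rps19 and Rpl9, joined over transcripts, were 1217, 1647, 617 and 1955 nt long. The family's many processed pseudogenes make the assignment uncertain.

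Markers of microglia and leukocytes held 3' UTR footprints in EAE mice and in no naïve mouse. No 3' UTR of its 36 genes was footprinted in naïve mice 1, 2 or 3. In mild EAE mice 3, 4 and 7 the 3' UTRs of 6, 2 and 4 genes were footprinted and in severe EAE mice 1, 2, 5 and 6 those of 1, 0, 9 and 0, together 12 genes, or 8 without severe EAE mouse 5. Of all 2651 genes with a 3' UTR footprint, 47.5% held it in EAE mice and in no naïve mouse, or 32.3% of 2057 genes without severe EAE mouse 5. Counting footprints in 3' UTR, CDS or introns, naïve mice held 2, 4 and 2 genes of the list, mild EAE mice 19, 14 and 18 and severe EAE mice 5, 1, 24 and 4. Over all genes the same count was 4014, 5408 and 4464 in naïve mice, 3971, 2964 and 5640 in mild EAE and 1135, 98, 6538 and 363 in severe EAE. Severe EAE mice 2 and 6, with the shortest lists, overlapped with naïve mice, and the other EAE mice lay above them. The summed length of the list's 3' UTR footprints was 983, 346 and 978 nt in mild EAE and 177, 0, 1922 and 0 nt in severe EAE mice. In whole cord, more cells of a type and more RNA per cell cannot be told apart, and more RNA of these genes in the cord was not tested as a part of this difference.

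**Figure D5:**
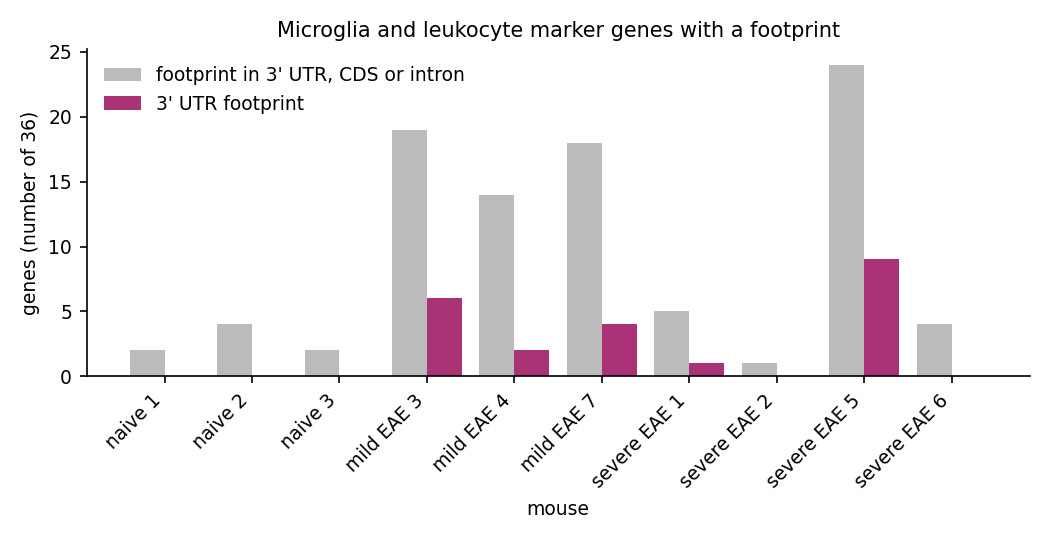
Number of the 36 microglia and leukocyte marker genes (vertical) with a footprint in 3' UTR, CDS or intron (grey) and with a 3' UTR footprint (purple) in each mouse (horizontal). Naïve mice show 2 to 4 genes and no 3' UTR footprint, and mild EAE mice 14 to 19 genes with 2 to 6 in the 3' UTR.

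The leading genes of this list belonged to antigen presentation and complement. Cd74, the invariant chain of MHC class II, held 226 and 414 nt of 3' UTR in mild EAE mice 4 and 7 and 309 nt in severe EAE mouse 5. H2-Ab1, an MHC class II beta chain, held 210 and 285 nt in mild EAE mice 3 and 7 and 242 nt in severe EAE mouse 5. H2-Aa, the matching alpha chain, held 161 and 135 nt in mild EAE mice 3 and 7 and 177 and 144 nt in severe EAE mice 1 and 5. C1qb, of the first complement component, held 139 and 144 nt in mild EAE mice 3 and 7 and 305 nt in severe EAE mouse 5. All 4 were at 0 nt in naïve mice in the 3' UTR, and the first 3 also in the CDS. They entered the test through EAE mice alone, which fixed the direction of their difference. Their exact permutation p ran from 0.2 (H2-Aa) to 0.475 (H2-Ab1), with adjusted p of 0.896 or above, because EAE mice without a footprint lay at 0 as well.

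Mpeg1, a pore-forming protein of macrophages that is on no list and was picked from the 26 EAE regions with its values known, held 264, 172 and 385 nt of 3' UTR in mild EAE mice, 458 and 143 nt in severe EAE mice 5 and 6 and none in naïve mice (exact permutation p = 0.125, adjusted p = 0.731). That pick fixed the direction of the difference in Mpeg1. Its CDS too was footprinted in EAE mice alone, at 729, 927, 952 and 119 nt in mild EAE mice 3 and 7 and severe EAE mice 5 and 6. H2-K1, an MHC class I gene picked in the same way, held 332 and 233 nt in mild EAE mice 3 and 7, 213 and 186 nt in severe EAE mice 1 and 5 and 20 nt in naïve mouse 2. In its CDS the naïve mice held 0, 393 and 163 nt and the EAE mice 0 to 182 nt, so the highest value was naïve. H2-D1, another MHC class I gene, had a region in naïve mice 1 and 2 (46 and 21 nt) and in no EAE mouse. Close copies of H2-K1 exist in the genome, so its assignment is uncertain.

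Of endothelial and pericyte markers, 7 of 15 held a member, 5, 1 and 4 of them in naïve mice 2 and 3 and mild EAE mouse 7, 2 in severe EAE mouse 5 and none in the others. Their footprints of all 3 classes covered 14, 11 and 11 genes in naïve mice 2 and 3 and mild EAE mouse 7 and 0 to 6 genes elsewhere, so the vessel genes differed between mice of 1 group. The named genes were Rgs5 of pericytes (1225 nt), Flt1 (432 nt), Slc2a1 (274 nt) and Cldn5 (270 nt) of endothelium.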

How the data were processed

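Spinal cords of 10 mice were measured by hnRNP A1 CLIPseq. The authors trimmed reads with fastp after bcl2fastq 2.19.0.316, assembled them with rnaSPAdes, aligned contigs to GRCm38 with minimap2 2.17, subtracted matched input and pooled IgG with bedtools and merged overlapping intervals. The deposited files hold chromosome, start and end positions per mouse with no other value, so the depth behind a footprint is unknown, library read totals were not used here, and precision rests on the number of mice. An interval therefore follows assembled contigs and not crosslink sites. Input and IgG samples were not analysed here. Labels name antibody clone 9H10 and the methods another clone.

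Classes came from GENCODE M21 with Python 3.11.15, NumPy 2.4.6, SciPy 1.17.1 and pysam 0.24.0, and 571 footprints off chromosomes 1 to 19, X and Y were left out. Position used 1 transcript per footprint (APPRIS principal, then basic, then longest 3' UTR). Groups were compared over mice with two-sided exact permutation tests of means, within-mouse values with exact sign-flip tests, and p-values were adjusted by Benjamini-Hochberg. Motifs were counted in members whose 3' UTR genes lay on 1 strand, which left out 42 members with 3' UTRs on both strands. Other members under genes of both strands were counted, on the strand of the 3' UTR gene. Ratios carry a pseudocount of 0.5 per count. Gene features needed 3 footprinted mice. Class, position, motif, merging and test code was tested on simulated data. Mice were not stated to share litters, and same-numbered mice did not deviate together over 551 genes (correlations -0.0314, 0.0626 and -0.0702).

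Named were the 10 merged 3' UTR regions in the most mice (1 per gene), the 10 genes with the most footprinted 3' UTR nt, the 5 regions with most nt in at least 2 naïve and no EAE mouse, the 5 in at least 4 EAE and no naïve mouse, and the 4 genes of each list with most 3' UTR nt. Some items picked by these rules are not reported here. Sequence windows were set around the first UAG, or the middle, of the stretch covered by the most mice, a choice made after seeing the data. Members, lists and tests were chosen with earlier results of these data known.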

Additional observations from a re-analysis of the deposited data

Results flagged for a closer look

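The number of 3' UTR footprints in severe EAE mouse 5, 2025, stood far from the 25, 71 and 223 of the other severe EAE mice. It was the single such case among 14 sets of values examined. Chance alone gives about 1 in 20 for each set, which does not decide whether this case arose by chance. The mouse also had the longest list of all, 31870 intervals in any class. The paper describes the same animal as an outlier that had gone into remission shortly before it was killed. Why its number stood apart was not tested.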

How the results depend on the processing

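The share, position, UAG and overlap results kept their direction and their side of the threshold under footprint length limits, GENCODE basic transcripts, other counting rules, joined footprints, other flanks and other overlaps. Leaving out 1 mouse at a time moved the UAG ratio of members between -0.120 and -0.0789, past the threshold without naïve mouse 3 (p = 0.0469) and severe EAE mouse 6 (p = 0.0391), both by the exact sign-flip permutation test. It moved the overlap of members above that of introns between 9.51 (without severe EAE mouse 5) and 18.6 points, the difference of EAE from naïve in number between -353 (without severe EAE mouse 5) and -17.9 footprints (without naïve mouse 2), and that in the UAG ratio between 0.0038 and 0.175. It moved the length difference of EAE from naïve between -2.14 and 7.86 nt, turned by leaving out naïve mouse 2, and the count of gene features with an unadjusted p under 0.05 between 236 (without naïve mouse 1 or 3) and 701 (without severe EAE mouse 5), against 430 with all mice. Without naïve mouse 2 it was 266. With features footprinted in at least 5 mice the count was 260, as fewer features are tested. Severe against mild EAE passed the threshold by covered nucleotides only (6.71 points, exact permutation p = 0.0286).

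With the replicate block, which set EAE mice 1, 2 and 3 beside naïve mice 1, 2 and 3, the differences of EAE from naïve were 3.77 points in share (exact sign-flip permutation p = 0.5), -483 footprints (p = 0.25) and -0.0202 in the UAG ratio (p = 0.5), the last with its sign turned; the cause was not tested, and the shared numbers mark different mice. Comparisons of severe EAE alone, of all motifs without each mouse, of genes without severe EAE mouse 5, of the other parts of the 3' UTR, of regions without some severe EAE mice and of gene features without each mouse were added after seeing the data. Lists of 25 and 71 members limit all severe EAE values.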
